A study of Mus musculus with 6 samples.

Results

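Semaphorins, plexins, neuropilins, Eph receptors and ephrins are cell-surface and secreted guidance proteins. The 52 genes described here were found by their symbols (Sema3 to Sema7, Plxna to Plxnd, Nrp1 and Nrp2, Epha and Ephb, Efna and Efnb) among 19933 genes named by probe sets of an Affymetrix Gene 1.0 ST array. They comprised 20 semaphorins, 9 plexins, 2 neuropilins, 13 Eph receptors and 8 ephrins, and where a gene had several single-gene probe sets the brightest on average was read. Ephb2 was not analysed here. The samples were total epithelial cell preparations from the jejunum of mice. The 3 MSI2-induced mice had the genotype TRE-MSI2::R26-M2rtTA, a doxycycline-responsive transgene for the RNA-binding protein MSI2 together with the M2rtTA transactivator at the Rosa26 locus, and are titled transgenic. The 3 control mice had the genotype R26-M2rtTA, the transactivator without the transgene. Both groups drank doxycycline for 24 hours, each mouse gave 1 array, and the sources used here state neither age nor strain background. The transactivator sits at a broadly active locus, so the induction is not by its promoter limited to epithelium.

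Semaphorins bind plexins, and the secreted class 3 members mostly do so with a neuropilin as coreceptor. The plexin's intracellular part then acts on small GTPases such as Rap, which loosens adhesion and reshapes the actin cytoskeleton. Eph receptors are tyrosine kinases that bind ephrins on neighbouring cells, with signals running into both cells. EphA receptors mainly bind the lipid-anchored ephrin-A ligands and EphB receptors the transmembrane ephrin-B ligands. In the mouse intestine, opposing gradients of EphB receptors in the crypt and ephrin-B ligands towards the villus help to keep cell types in their positions.

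The arrays were checked before the comparisons, in values on the log2 scale as deposited. Msi1, the paralog of Msi2, was at 13.44, 12.82 and 13.53 in the MSI2-induced arrays and at 7.20, 7.97 and 7.62 in the controls (adjusted p = 0.000818 in limma). Msi2 itself was at 11.23, 10.58 and 11.44 in the MSI2-induced arrays and at 11.30, 9.53 and 9.32 in the controls (adjusted p = 0.257, and 0.00958 without control replicate 1). Control replicate 1 thus had an Msi2 value among those labelled transgenic, and it correlated with the other controls by 0.981 and 0.982 over all probe sets, where these 2 correlated with each other by 0.996. The label names MSI2, but the gene that separated all labelled arrays was Msi1, and the Msi2 value of control replicate 1 goes against its label. The files do not reconcile these readings, so MSI2-induced and control stand below for the libraries labelled so, and every direction rests on those labels. Markers of epithelium had mean levels of 11.72 to 11.88 in the MSI2-induced arrays and 11.77 to 11.85 in the controls over 11 genes, of which 2 were higher and 3 lower. Krt18, an epithelial keratin, was higher (log2 fold change 1.47, adjusted p = 0.00221), and Cdx2, an intestinal transcription factor, was at -0.82 (adjusted p = 0.017). Of 14 enteroendocrine markers 3 were lower (Chgb, Neurog3 and Gcg). Of 16 measured markers of T cells and intraepithelial lymphocytes 12 were lower and 1 higher, with mean levels of 6.42 to 7.24 in the MSI2-induced arrays and 8.0 to 8.47 in the controls. Over all genes 9.65% were lower and 8.97% higher. With sex as a block 7 of these lymphocyte markers were lower, beside 5.47% of all genes, and none was higher. None of 9 goblet (median log2 fold change -0.67), 7 Paneth and 8 tuft markers passed. Of 15 endothelial markers 2 were higher (means 5.70 to 5.72 and 5.54 to 5.61), of 14 myeloid markers 3 were higher (6.33 to 6.52 and 6.03 to 6.14), of 15 fibroblast and muscle markers 1 was lower (6.03 to 6.20 and 6.01 to 6.29), and of 7 B and plasma cell markers and 11 neuronal and glial markers none passed. Their part in the results was not tested, and in such bulk samples fewer cells of a type and less RNA per cell cannot be told apart.

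The guidance genes changed in both directions, and members of 1 class moved in opposite ways. In limma with Benjamini-Hochberg adjustment over all genes, 6 of the 52 genes were higher and 8 were lower in MSI2-induced epithelium at an adjusted p under 0.05. These are 11.5% and 15.4% of the genes, beside 8.97% and 9.65% of all 19933 genes, or 26.9% against 18.6% for both directions. The median log2 fold change (MSI2-induced minus control) was 0.02 over the 52 genes and 0.02 over all genes. The genes that rose were the receptors Epha2 and Epha4, the semaphorins Sema3c and Sema6b, the plexin Plxna1 and the ligand Efnb2. Those that fell were Sema4g, Ephb4, Epha1, Efna3, Plxnb2, Sema3b, Efna4 and Plxnd1. The groups did not overlap in 23 of the 52 genes (44.2%), beside 37% of all genes, and 10 of the 14 called genes differed at least 2-fold (19.2% of the 52 genes, beside 7.17% of all genes). With the replicate number as a block 8 were higher and 9 lower, or 32.7% of the guidance genes, beside 25.8% of all genes (12.7% higher and 13.1% lower). With sex as a block 6 were higher and 5 lower, beside 5.36% and 5.47%. Array weights gave 8 higher and 11 lower, beside 18.2% and 17.3% (35.5% in both directions), and leaving out control replicate 1 gave 6 higher and 10 lower, beside 13.4% and 14.4%. Leaving out MSI2-induced replicate 3, control replicate 2 or control replicate 3 gave 5 higher and 3 lower in each case. In these fits 1074, 976 and 952 of all 19933 genes passed in both directions together. The replicate block added Sema7a, Plxna2, Sema4a and Efnb1 and lost Plxnd1.

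**Figure D1:**
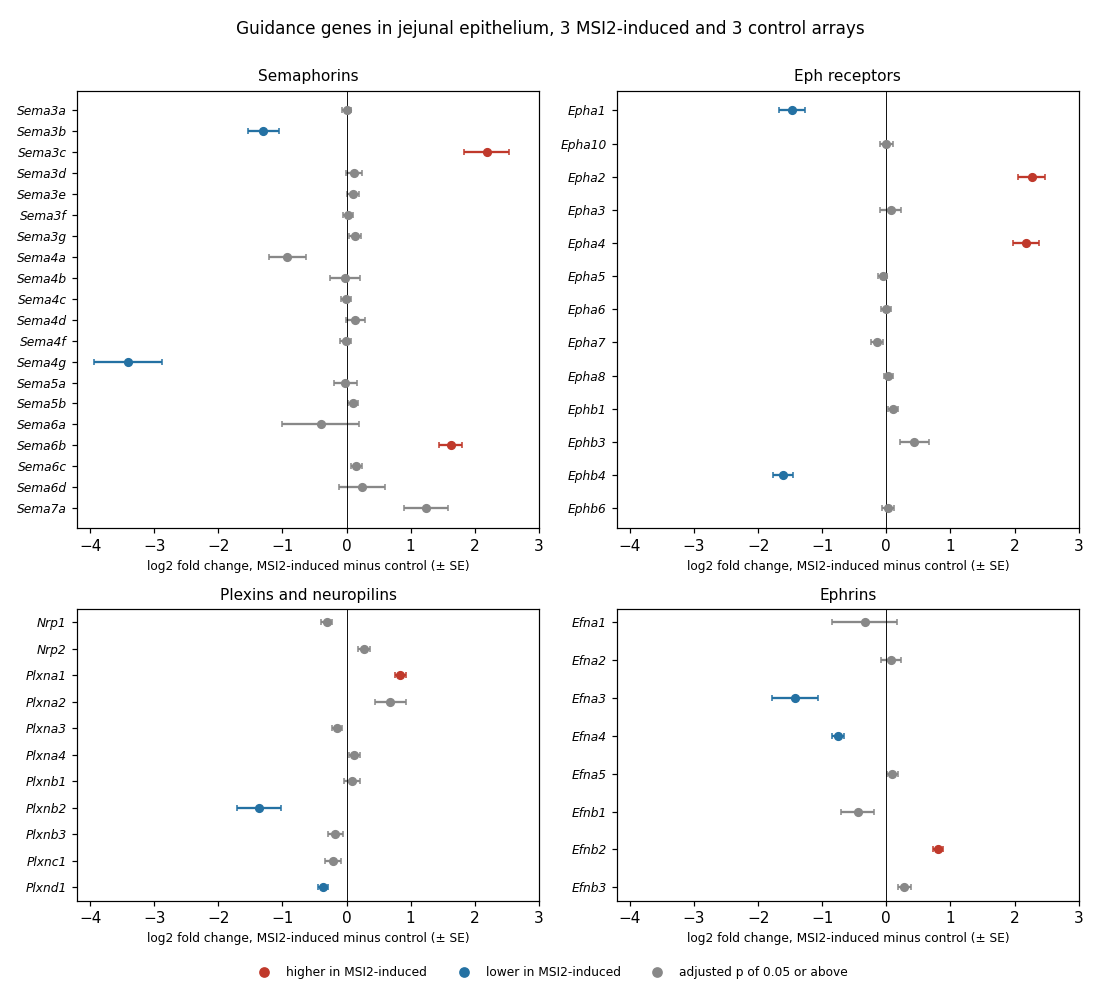
Log2 fold change of each of the 52 genes, MSI2-induced minus control, with its moderated standard error on the horizontal axis, in 4 panels by family. Red points are the 6 genes higher and blue points the 8 genes lower at an adjusted p under 0.05 in limma, and grey points did not pass. Most genes lie near 0, while single members of each family lie far from it on either side.

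Promoter windows are shown for the 4 Eph receptors that passed, 2 that rose and 2 that fell, and for Sema6b. For Sema6b only the window with a TGANTCA match is shown, and it was picked for that match. They come from RefSeq (GRCm38.p6), which held a window for 46 of the 52 genes, 60 windows in all. Each runs from 250 bases before to 50 bases after an annotated start, on the gene's strand. Capitals mark a match to any of 4 motifs searched on both strands: TGANTCA (AP-1), CACGTG (E-box), TCAAAG (TCF core) and TTCNNNGAA (STAT).
Epha2 (chr4:141300971-141301270, + strand): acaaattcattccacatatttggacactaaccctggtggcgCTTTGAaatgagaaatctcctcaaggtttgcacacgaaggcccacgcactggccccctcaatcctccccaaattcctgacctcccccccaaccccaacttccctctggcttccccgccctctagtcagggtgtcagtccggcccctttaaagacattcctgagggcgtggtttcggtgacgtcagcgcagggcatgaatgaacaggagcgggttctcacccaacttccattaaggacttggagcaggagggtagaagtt
Epha4 (chr1:77515039-77515338, − strand): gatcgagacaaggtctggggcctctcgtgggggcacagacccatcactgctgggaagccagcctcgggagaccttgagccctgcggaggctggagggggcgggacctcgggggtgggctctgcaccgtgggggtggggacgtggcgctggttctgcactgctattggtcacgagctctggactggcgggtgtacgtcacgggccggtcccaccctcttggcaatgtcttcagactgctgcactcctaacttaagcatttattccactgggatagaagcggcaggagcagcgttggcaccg
Epha1 (chr6:42373219-42373518, − strand): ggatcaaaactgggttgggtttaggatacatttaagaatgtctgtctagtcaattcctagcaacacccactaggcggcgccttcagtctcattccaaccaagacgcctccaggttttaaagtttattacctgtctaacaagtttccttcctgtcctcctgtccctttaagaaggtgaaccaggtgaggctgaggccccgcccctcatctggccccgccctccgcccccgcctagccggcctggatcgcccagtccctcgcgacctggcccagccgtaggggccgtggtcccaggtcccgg
Ephb4 (chr5:137349859-137350158, + strand): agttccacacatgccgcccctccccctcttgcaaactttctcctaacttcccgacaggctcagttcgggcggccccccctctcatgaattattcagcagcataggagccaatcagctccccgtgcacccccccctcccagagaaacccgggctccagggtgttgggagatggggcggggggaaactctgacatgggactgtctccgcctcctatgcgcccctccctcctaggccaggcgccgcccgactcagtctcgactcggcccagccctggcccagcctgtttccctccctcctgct
Sema6b (chr17:56133803-56134102, − strand): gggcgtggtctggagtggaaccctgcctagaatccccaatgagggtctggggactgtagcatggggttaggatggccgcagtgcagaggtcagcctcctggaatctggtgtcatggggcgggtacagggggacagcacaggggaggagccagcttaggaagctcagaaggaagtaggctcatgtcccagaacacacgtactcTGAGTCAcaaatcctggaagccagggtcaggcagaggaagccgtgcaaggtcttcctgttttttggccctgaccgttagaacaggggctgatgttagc

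Epha2 held 1 match, to TCAAAG on the reverse strand. The window of Sema6b, picked for its match, held 1 match to TGANTCA, read as TGAGTCA, which its other window lacks. It was the only 1 of the 6 windows of guidance genes that rose to hold TGANTCA (16.7%). None of the 4 motifs lay in the windows of Epha4, Epha1 and Ephb4. Over all 60 windows of the guidance genes, 5.00% held TGANTCA, 6.67% CACGTG, 6.67% TCAAAG and 5.00% TTCNNNGAA, against 7.81%, 7.15%, 16.0% and 8.30% of all 32851 windows. The windows of the guidance genes had a median GC content of 64.0% and a median of 19 CG pairs, against 52.7% and 7 for all windows. A match is a description of letters and not a bound site.

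Among the Eph receptors, 2 rose, 2 fell and 9 did not pass. Epha2, an epithelial receptor for ephrin-A1, had log2 values of 11.27, 10.67 and 11.50 in MSI2-induced mice, against 8.85, 8.97 and 8.81 in controls. Each MSI2-induced array lay at least 1 log2 unit above every control. Epha2 was 4.82-fold higher (log2 fold change 2.27, standard error, SE, 0.21, adjusted p = 0.00333 in limma). Epha4, which binds ligands of both ephrin classes, had values of 9.11, 8.29 and 8.62 in MSI2-induced mice and 6.50, 6.49 and 6.48 in controls. The controls were nearly equal and all MSI2-induced values lay above them. Epha4 was 4.55-fold higher (log2 fold change 2.19, SE 0.20, adjusted p = 0.00327).

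The 2 Eph receptors that fell belong to different classes. Epha1, another receptor for ephrin-A ligands, had values of 7.63, 8.13 and 7.89 in MSI2-induced mice, against 9.05, 9.70 and 9.33 in controls. All MSI2-induced values lay below all controls, and the log2 fold change was -1.47 (SE 0.20, adjusted p = 0.00849). Ephb4, the receptor that prefers ephrin-B2, had values of 7.66, 7.79 and 7.36 in MSI2-induced mice and 9.43, 9.15 and 9.06 in controls. It was 3.06-fold lower (log2 fold change -1.61, SE 0.15, adjusted p = 0.00329), and here control replicate 1 was the highest control. These 4 receptors passed in every fit that left out 1 array, with adjusted p values of up to 0.0443.

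The other EphB receptors measured showed no such difference. Ephb3, which marks the crypt base, was at 8.26, 7.44 and 7.55 in MSI2-induced mice and at 7.25, 7.22 and 7.48 in controls. The groups overlapped, since 1 control exceeded 1 MSI2-induced array, and the log2 fold change of 0.43 (SE 0.23) did not pass (adjusted p = 0.246). Ephb6, a receptor without kinase activity, averaged 5.99 ± 0.11 in MSI2-induced mice and 5.97 ± 0.08 in controls (SD, n = 3 each). Of 22 other genes of Wnt feedback and the crypt base, 2 rose and 4 fell, beside 8.97% and 9.65% of all genes. The median log2 fold change of this list was 0.03. Those that fell included Axin2 (log2 fold change -1.15, adjusted p = 0.0045), a feedback inhibitor of Wnt signalling, and Ascl2 (-1.14, adjusted p = 0.00691), a transcription factor of crypt base stem cells. Olfm4, a crypt base stem cell marker, fell by 3.24 on the log2 scale (adjusted p = 0.00485). Other crypt base stem cell markers of the list did not pass, and its uncalled genes had log2 fold changes from -0.84 to 0.88. Cd44, an adhesion receptor of the crypt, rose by 1.82 (adjusted p = 0.0244), but did not pass without MSI2-induced replicate 1 or 3 (0.081 and 0.0959) or without either of control replicates 2 and 3 (0.0878 and 0.0958). Epha3, Epha5, Epha6, Epha7, Epha8, Epha10 and Ephb1 had no call. Epha3, Epha5 and Epha6 lay on all 6 arrays at or below 5.06, which was the highest value of sex-specific transcripts (Xist, Y-linked genes) in animals of the other sex.

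Of the 3 ephrin-B ligands, 1 rose. Efnb2, the transmembrane ligand of Ephb4, had values of 10.42, 10.52 and 10.40 in MSI2-induced mice, against 9.58, 9.70 and 9.63 in controls. The spread within each group was small beside the difference, which was 1.75-fold (log2 fold change 0.81, SE 0.08, adjusted p = 0.00333). The ligand was thus higher in the mice in which its receptor Ephb4 was lower. Other receptors did not share that fall: Epha4, which binds both ephrin classes, was higher (log2 fold change 2.19), and Ephb3 had no call (0.43). Efnb1, also an ephrin-B ligand, was at 9.0, 9.37 and 9.48 in MSI2-induced mice and at 9.19, 9.99 and 10.02 in controls. Its groups overlapped through control replicate 1, and the log2 fold change of -0.45 did not pass (adjusted p = 0.286). It passed with the replicate number as a block (adjusted p = 0.049) and without control replicate 1 (log2 fold change -0.72, adjusted p = 0.0221). Efnb3 averaged 6.74 ± 0.13 in MSI2-induced mice and 6.46 ± 0.12 in controls (SD, n = 3 each) and did not pass (adjusted p = 0.117).

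Of 5 ephrin-A ligands, 2 fell. Efna4 had values of 6.44, 6.42 and 6.45 in MSI2-induced mice, against 7.10, 7.13 and 7.35 in controls. The log2 fold change was -0.76 (SE 0.09, adjusted p = 0.00605), the groups lay well apart, and the call held without any 1 array (adjusted p of up to 0.0327). Efna3 had values of 4.97, 5.45 and 5.51 in MSI2-induced mice and 5.94, 7.26 and 7.0 in controls. Control replicate 1 lay more than 1 log2 unit below the other controls but above every MSI2-induced array, and the lowest MSI2-induced value lay at or below 5.06. Its log2 fold change was -1.43 (SE 0.36, adjusted p = 0.0416), and the call was lost with sex as a block (adjusted p = 0.0756). It was also lost without MSI2-induced replicate 1, 2 or 3 (adjusted p = 0.129, 0.0678 and 0.111) and without control replicate 2 or 3 (0.124 and 0.142), while it was kept without control replicate 1 (0.00389). Efna1, the ligand that binds Epha2 and Epha1, was at 8.12, 9.58 and 9.25 in MSI2-induced mice and at 8.46, 9.75 and 9.77 in controls. Replicate 1 was the lowest array in both groups, and the log2 fold change of -0.34 (SE 0.50) did not pass (adjusted p = 0.704). Efna1, Efna3 and Efna4 lie side by side on chromosome 3 in the reference annotation, with no protein-coding gene between neighbours.

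**Figure D2:**
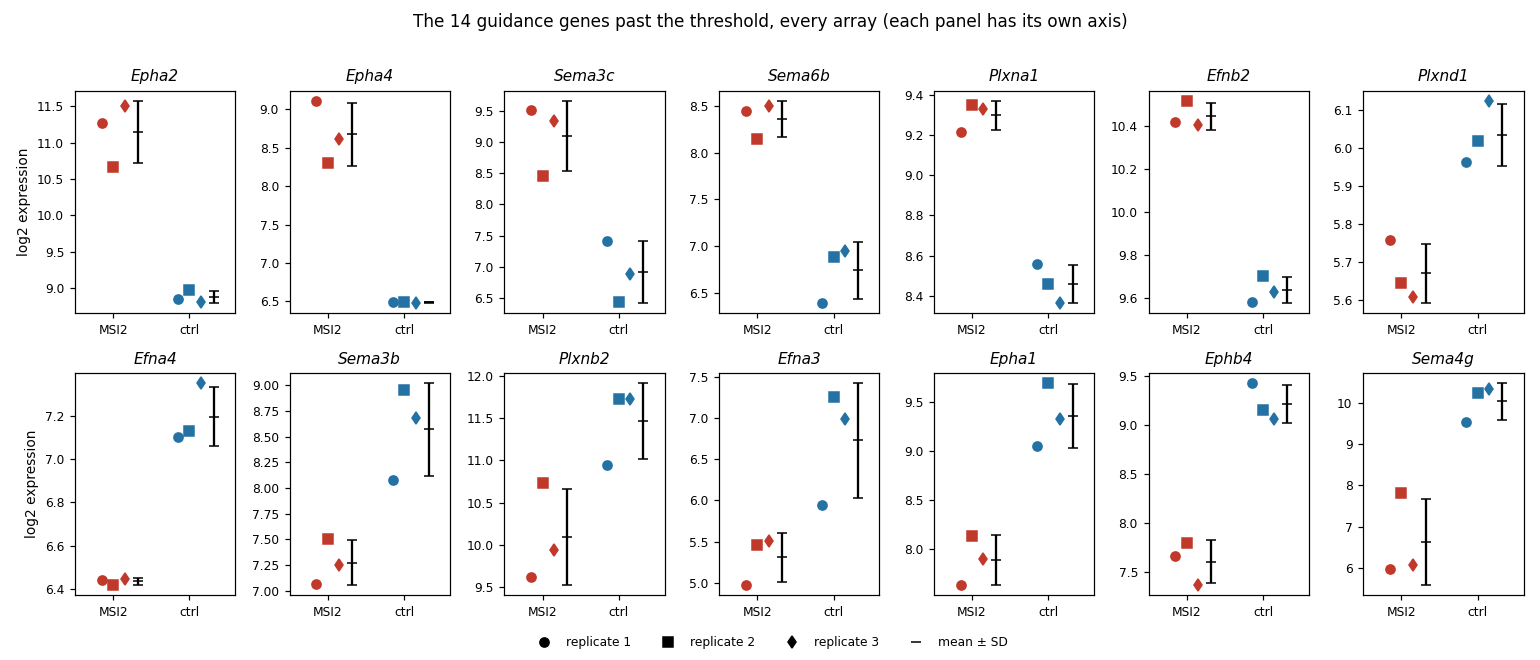
Log2 expression on every array for the 14 guidance genes that passed, ordered from the largest rise to the largest fall, with MSI2-induced arrays in red on the left and control arrays in blue on the right of each panel. Symbols give the replicate number and bars the mean ± SD (n = 3 each). The groups do not overlap in any panel, and the spread is wide in Sema3c, Sema4g, Plxnb2 and Efna3.

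Of the 20 semaphorins, 2 rose and 2 fell. Sema4g, a transmembrane semaphorin that binds plexin-B2, had values of 5.99, 7.83 and 6.06 in MSI2-induced mice, against 9.53, 10.24 and 10.34 in controls. MSI2-induced replicate 2 lay above the other MSI2-induced arrays but below every control. Sema4g was 10.6-fold lower (log2 fold change -3.41, SE 0.53, adjusted p = 0.012). The call was lost without MSI2-induced replicate 3 and without control replicate 2 or 3 (adjusted p = 0.0541, 0.0568 and 0.0586), where the log2 fold change stayed between -3.31 and -3.13.

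The secreted class 3 semaphorins held a rise and a fall. Sema3c, which signals through neuropilins and plexins, had values of 9.50, 8.46 and 9.33 in MSI2-induced mice and 7.42, 6.43 and 6.89 in controls. Every MSI2-induced value lay above every control, although both groups spread over about a log2 unit. It was 4.54-fold higher (log2 fold change 2.18, SE 0.35, adjusted p = 0.0132) and did not pass when MSI2-induced replicate 3 was left out (adjusted p = 0.0622), nor when control replicate 2 or 3 was (0.0533 and 0.0604). Sema3b, a secreted semaphorin, had values of 7.07, 7.50 and 7.25 in MSI2-induced mice, against 8.08, 8.95 and 8.68 in controls. Control replicate 1 was the control nearest to the MSI2-induced arrays. The log2 fold change was -1.30 (SE 0.24, adjusted p = 0.019). The call was lost when MSI2-induced replicate 1 or 3 was left out (adjusted p = 0.0676 and 0.0778), and likewise for control replicate 2 or 3 (0.0619 and 0.0794). Sema3f, separated from Sema3b by 3 protein-coding genes on chromosome 9, averaged 7.03 ± 0.07 in MSI2-induced mice and 7.01 ± 0.07 in controls (SD, n = 3 each). Sema3a, Sema3d, Sema3e and Sema3g had no call, and Sema3a and Sema3d lay on all arrays at or below 5.06.

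Sema6b, a transmembrane semaphorin of class 6, had values of 8.45, 8.14 and 8.50 in MSI2-induced mice, against 6.39, 6.88 and 6.95 in controls. The groups lay more than a log2 unit apart, and Sema6b was 3.08-fold higher (log2 fold change 1.62, SE 0.18, adjusted p = 0.0051). Its 2 single-gene probe sets carried the same values on all arrays and so give no second reading. Sema6a, of the same class, was at 9.46, 10.82 and 10.29 in MSI2-induced mice and at 9.35, 11.19 and 11.25 in controls. Control replicate 1 was the lowest of all 6 arrays, and the log2 fold change of -0.40 (SE 0.60) did not pass (adjusted p = 0.704).

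The semaphorins Sema7a and Sema4a lay just outside the threshold. Sema7a, a lipid-anchored ligand of plexin-C1 and integrins, had values of 8.55, 9.30 and 9.62 in MSI2-induced mice, against 7.82, 8.44 and 7.51 in controls. The groups did not overlap, but the lowest MSI2-induced and the highest control value were close, and the log2 fold change of 1.23 (SE 0.34) had an adjusted p of 0.0546, and of 0.0394 with the replicate number as a block. It was 0.116 with sex as a block and 0.047 to 0.17 when 1 array was left out. Sema4a, a transmembrane semaphorin also made by immune cells, had values of 9.86, 10.63 and 10.34 in MSI2-induced mice and 10.67, 11.51 and 11.44 in controls. Control replicate 1 lay just above the highest MSI2-induced array. Its log2 fold change of -0.93 (SE 0.29) had an adjusted p of 0.0752, of 0.00609 with the block and of 0.0154 without control replicate 1. It was 0.12 with sex as a block and up to 0.223 without another array.

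Of 9 plexins, 1 rose and 2 fell. Plxna1, a receptor for class 6 semaphorins and, with neuropilins, for class 3, had values of 9.22, 9.35 and 9.33 in MSI2-induced mice, against 8.56, 8.46 and 8.36 in controls. The groups were tight, and the gene was 1.79-fold higher (log2 fold change 0.84, SE 0.08, adjusted p = 0.00402). Plxna2, a receptor for class 6 semaphorins, was at 9.0, 9.92 and 9.48 in MSI2-induced mice and at 8.58, 8.76 and 9.01 in controls. Its groups overlapped slightly, and the log2 fold change of 0.68 had an adjusted p of 0.108, and of 0.046 once the replicate number was a block.

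Plxnb2, the receptor of class 4 semaphorins that binds Sema4g, had values of 9.62, 10.73 and 9.94 in MSI2-induced mice, against 10.94, 11.72 and 11.73 in controls. It was lower in the same mice as Sema4g, with MSI2-induced replicate 2 the highest MSI2-induced array for both. That order was common, at 5 of the 8 guidance genes that fell (62.5%) and 64.8% of all genes that fell. The log2 fold change was -1.37 (SE 0.34, adjusted p = 0.0418). The call was lost with sex as a block (adjusted p = 0.0703), without MSI2-induced replicate 1 or 3 (0.118 and 0.141) and without control replicate 2 or 3 (0.139 and 0.143). Plxnb1, a related receptor of class 4 semaphorins, averaged 6.81 ± 0.06 in MSI2-induced mice and 6.73 ± 0.22 in controls (SD, n = 3 each, adjusted p = 0.708).

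Plxnd1, the receptor of Sema3e and prominent in endothelium, had values of 5.76, 5.65 and 5.61 in MSI2-induced mice, against 5.96, 6.02 and 6.13 in controls. Its groups did not overlap, but its change was the smallest of the 14, with a log2 fold change of -0.37 (SE 0.08, adjusted p = 0.031). It did not pass with the replicate number or sex as a block (adjusted p = 0.0533 and 0.067), nor without MSI2-induced replicate 1, 2 or 3 (0.066, 0.063 and 0.111) or control replicate 2 or 3 (0.101 and 0.112). The neuropilins did not pass in the main comparison, though both lay near the threshold. With array weights both passed, as did 35.5% of all genes, and Nrp1 also passed without MSI2-induced replicate 2. Nrp1, a coreceptor for class 3 semaphorins and for vascular endothelial growth factor, was at 4.50, 4.66 and 4.42 in MSI2-induced mice and at 4.85, 4.86 and 4.80 in controls, all at or below 5.06 (adjusted p = 0.0549). Nrp2, the other neuropilin, averaged 5.79 ± 0.10 in MSI2-induced mice and 5.52 ± 0.07 in controls (SD, n = 3 each, adjusted p = 0.0777).

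The controls differed among themselves in a group of these genes. Control replicate 1 was the lowest control for 7 of the 8 guidance genes that fell (87.5%), as it was for 66.0% of all genes that fell. It was the highest control for 3 of the 6 that rose (50%), and for 59.1% of all genes that rose. Control replicate 1 minus the mean of the other controls was -1.87 for Sema6a and -1.30 for Efna1 on the log2 scale. It was -1.19 for Efna3, -0.81 for both Efnb1 and Sema4a and -0.78 for Plxnb2. The difference ran the other way for Sema3c (0.76) and Sema5a (0.52). The mean of 19 enterocyte markers was 10.89, 12.38 and 11.83 in MSI2-induced mice and 11.79, 13.00 and 12.98 in controls. MSI2-induced replicate 1 was thus the lowest array and control replicate 1 the lowest control for these markers. That order also held for Sema4a, Plxnb2, Efna1 and Efnb1, and likewise for Epha1, Sema4g, Sema3b and Efna3. Its share over all genes was not counted. The part of these markers in the values of the guidance genes was not tested. Of the 19 markers 1 fell, beside 9.65% of all genes. With the replicate number as a block 12 fell, beside 13.1% of all genes, and with sex as a block none fell, beside 5.47%.

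**Figure D3:**
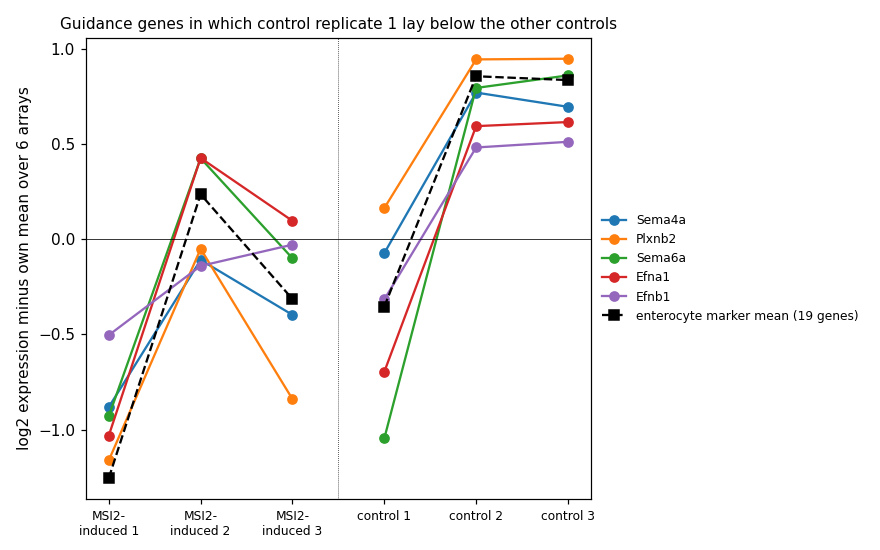
Log2 expression minus the gene's own mean over the 6 arrays, for Sema4a, Plxnb2, Sema6a, Efna1 and Efnb1 (coloured lines) and for the mean of 19 enterocyte markers (dashed black line). MSI2-induced arrays are on the left and controls on the right, in replicate order, and lines join arrays of 1 group only to guide the eye. The genes were chosen because control replicate 1 lay below control replicates 2 and 3, so the choice fixed that order in the coloured lines. The marker mean has the same order. Guidance genes with the opposite difference, such as Sema3c and Sema5a, are not drawn.

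The remaining 25 guidance genes had log2 fold changes between -0.21 and 0.24, with adjusted p values of 0.261 or more. Besides genes named above they include Sema4b, Sema4c, Sema4d, Sema4f, Sema5a, Sema5b, Sema6c, Sema6d, Plxna3, Plxna4, Plxnb3, Plxnc1, Efna2 and Efna5. In all, 7 of the 52 genes lay on every array at or below 5.06, and none of these passed. That range belongs to other probe sets and only hints at which genes are near background.

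Signalling partners of the 2 systems were examined as lists. Of 47 measured partners of semaphorins and plexins, 7 rose and 11 fell, with a median log2 fold change of -0.07, beside 8.97% and 9.65% of all genes. The number that fell was 5 with sex as a block and 15 without control replicate 1. Rapgef2, an exchange factor that activates Rap, the GTPase that plexins inactivate, was 4.91-fold higher (log2 fold change 2.30, SE 0.18, adjusted p = 0.00208). L1cam, an adhesion molecule that takes part in class 3 semaphorin receptor complexes, was 4.47-fold lower (-2.16, SE 0.24, adjusted p = 0.00529). Erbb2, a receptor kinase that associates with B-type plexins, was at -1.51 (SE 0.20, adjusted p = 0.00775), and Cdk5, a kinase of the class 3 semaphorin response in neurons, at -1.49 (SE 0.20, adjusted p = 0.0084). Met, a receptor kinase that associates with B-type plexins and was named after its value was seen, rose by 0.64 on the log2 scale (adjusted p = 0.0094).

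Of 53 measured partners of Eph receptors and ephrins, 6 rose and 14 fell, beside 8.97% and 9.65% of all genes. The median log2 fold change of this list was -0.08. The number that fell was 11 with sex as a block and 17 without control replicate 1, beside 5.47% and 14.4% of all genes. Plcg1, a phospholipase downstream of receptor kinases, was 2.06-fold lower (log2 fold change -1.04, SE 0.11, adjusted p = 0.00477). Vav2, an exchange factor that Eph receptors recruit, was at -1.33 (SE 0.17, adjusted p = 0.00695). The adaptors Shb and Crk rose by 1.28 (SE 0.16, adjusted p = 0.00718) and 0.74 (SE 0.10, adjusted p = 0.00793). The related kinases Abl1 and Abl2, named after their values were seen, had log2 fold changes of -1.07 and 1.73 (adjusted p = 0.0105 and 0.0155). Abl1 did not pass when control replicate 2 was left out (0.0526). Abl2 did not pass without MSI2-induced replicate 1 or 3 (0.0521 and 0.0662) or either of control replicates 2 and 3 (0.0679 for each). Fyn and Rasa1 stand in both lists. Of 28 genes of the netrin, Slit and related guidance systems only Flrt3, an adhesion protein that binds Unc5 receptors, passed, with a rise of 1.20 (SE 0.22, adjusted p = 0.0191), and it did not pass without MSI2-induced replicate 1 or 3 or control replicate 2 or 3 (adjusted p = 0.0681, 0.0709, 0.0705 and 0.0799).

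**Figure D4:**
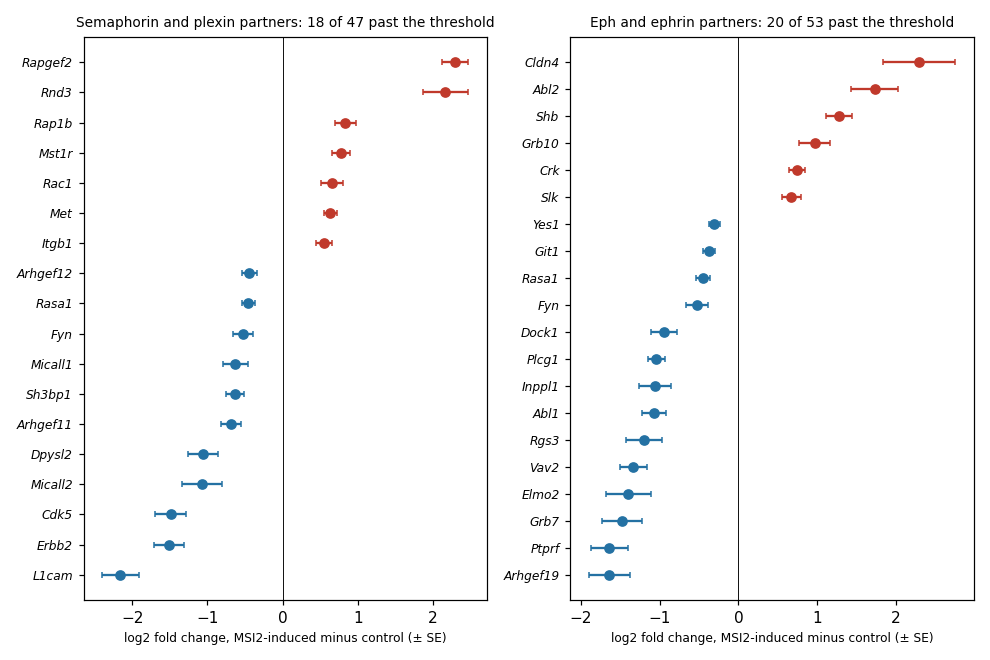
Log2 fold change, MSI2-induced minus control, with its moderated standard error, for the partner genes that passed at an adjusted p under 0.05. The left panel holds 18 of 47 semaphorin and plexin partners and the right panel 20 of 53 Eph and ephrin partners, with rises in red and falls in blue.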

How the data were processed

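Per the submitters' processing notes the arrays were processed with Partek and RMA, with no versions or settings given. The deposited values are log2 expression for 28350 probe sets, with a column for each array. The between-array step of RMA takes out differences in total RNA, and its background step compresses changes near background. Gene names come from the platform annotation, brought up to date by gene identifier from RefSeq (GRCm38.p6). A single gene was named by 21780 probe sets, and dim ones were kept. Array medians were 6.42 to 6.46. Arrays carry no read depth, and their number limits the precision.

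Groups were compared over all 19933 genes in limma 3.58.1 under R 4.3.3, by lmFit and eBayes with no term besides group. Tests were two-sided with Benjamini-Hochberg adjustment and a threshold of 0.05. An exact permutation test of 3 against 3 arrays cannot go below p = 0.1. On simulated data with 19933 genes, of which 200 were changed, 63% of genes changed by 1 log2 unit and 97% of those changed by 2 were recovered. There were 10 false calls. The simulated noise was independent between genes and arrays. It held no array-wide differences such as that of control replicate 1, so these figures check the code and do not carry over to these data. The labels call the samples biological replicates but do not state what a replicate number shares. Deviations from the group means correlated by 0.52, 0.41 and 0.13 between equal numbers, all over 0.1. Between unequal numbers the correlations ran from -0.44 to 0.32, the highest for MSI2-induced replicate 2 and control replicate 3. On this hint from the data alone the numbers paired the arrays in the replicate block only, and the main comparison ignored them. Such deviations cancel out within a group and are not independent. Sex was read from Xist and Y-linked genes, 1 of 3 MSI2-induced and 2 of 3 control animals being female.

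The members, gene lists and tests were chosen with earlier results of these data known. Values are given on every array, or as mean ± SD, for all genes that passed and for 13 further members, among them Efnb3, Sema3f, Sema4a, Sema6a and Plxna2, which were added after their values were seen. Up to 4 partner genes with the lowest p are named per list. Alternatives comprised the replicate number as block, averaged probe sets per gene, a filter on dim genes, 2 renewed normalizations, an intensity trend with robust estimation, array weights, a stricter threshold, sex as a block and leaving out each array.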

Additional observations from a re-analysis of the deposited data

How the results depend on the processing

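Under the replicate block 5139 genes in all passed, with 8 guidance genes higher and 9 lower, and the block changed no other call than those of Sema7a, Plxna2, Sema4a, Efnb1 and Plxnd1 among the genes named. Array weights gave 7072 genes in all, and sex as a block gave 2159 genes in all with 5 guidance genes lower and 6 higher. At an adjusted p under 0.01, 801 genes passed, with 5 guidance genes higher and 3 lower. Without 1 array, between 952 and 5542 genes passed in all, with 5 to 7 guidance genes higher and 3 to 10 lower. Of the 14 calls, 8 held in all 6 of these fits and 6 were lost in at least 1, those of Sema4g, Sema3c, Sema3b, Plxnb2, Efna3 and Plxnd1. Such fits hold fewer arrays, yet not all of them called fewer genes. Without control replicate 1 5542 genes passed, and without MSI2-induced replicate 2 4080, against 3710 in the main comparison. Why the 6 calls were lost was not tested. Renewed quantile normalization, median centring and the mean of a gene's probe sets kept all 14 calls and added none. The filter on dim genes left 27 guidance genes, kept the 12 calls among them and added Sema4a and Sema7a, and the intensity trend added Nrp1 and Sema7a. No called gene changed direction. Among the genes described by their values and without a call, the log2 fold change turned to -0.02 for Ephb6 with renewed quantile normalization, and to -0.03 and -0.02 without MSI2-induced replicate 3 and control replicate 3, in a range of -0.03 to 0.07 over the fits without 1 array. It turned to 0.09 for Efna1 without MSI2-induced replicate 1 (range -0.77 to 0.09), to -0.01 and -0.02 for Sema3f without MSI2-induced replicate 1 and control replicate 2 (range -0.02 to 0.06), and to -0.02 for Plxnb1 without control replicate 3 (range -0.02 to 0.20). Of the semaphorin and plexin partners 5 fell with sex as a block, against 11 in the main comparison, and of the enterocyte markers 4 fell without control replicate 1, against 1. The cause of these shifts was not tested. Of the 25 other guidance genes, which have small changes, none passed under any setting, and 11 turned sign in at least 1. RMA values of dim probe sets limit what can be said of the genes near background.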
